A study of Mus musculus with 4 samples.

Results

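Imprinting control regions are short CpG-rich stretches of DNA that carry methylation on the copy from only one parent and set which parental copy of nearby genes is expressed. This report covers 10 such regions that are methylated on the maternal copy, named for the genes Snrpn, Kcnq1ot1, Airn, Peg3, Peg10, Mest, Nnat, Grb10, Plagl1 and Impact. They were chosen by genome position (build mm10), with no threshold on the values of these samples. Earlier results of these data were known when the choice was made. All 10 could be measured, and they stand beside 16142 CpG islands in a fit of 16152 regions.

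DNA methylation was measured by whole-genome bisulfite sequencing, in which unmethylated cytosines are converted and methylated ones are not. The cells were testicular germ cells of 21-day-old mice. The 2 control samples were Np95fl/fl, with both copies of Np95 flanked by recombination sites. The 2 knockout samples were Np95fl/fl:Stra8-Cre, which also carry the Cre recombinase driven by Stra8, a gene switched on in premeiotic male germ cells, so that cells in which this driver is silent keep Np95. Np95, also named Uhrf1, guides the maintenance methyltransferase Dnmt1 to DNA that has just been copied. The labels do not say if replicates were separate mice or repeat preparations, and a p-value covers only the spread from sample to sample, which may be technical. The number of reads behind each value is not given in the table and is unknown, so no counting interval was computed.

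Maternal imprints are placed in growing oocytes with Dnmt3a and Dnmt3l. Primordial germ cells of both sexes erase the imprints they inherited, and the male germ line then methylates a small separate set of regions, those of H19, Meg3 and Rasgrf1 among them. In somatic cells the maternal copy of each of the 10 regions stays methylated and the paternal copy stays unmethylated. Most of the 10 lie at promoters: Kcnq1ot1 and Airn are long non-coding RNAs that silence neighbouring genes, Snrpn encodes a splicing protein, Peg3 and Plagl1 encode zinc finger proteins, Peg10 is a gene derived from a retrotransposon, Mest encodes a hydrolase-like protein, Nnat encodes neuronatin, Grb10 is an adaptor that restrains insulin signalling, and Impact encodes a regulator of translation.

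The regions carried little methylation in controls and more, not less, in the knockouts. The mean over the 10 regions was 4.86% in control replicate 1, 3.31% in control replicate 2, 8.86% in knockout replicate 1 and 6.75% in knockout replicate 2. From here on the values of a group are given in this order, replicate 1 first. The group means were 4.09% ± 1.09 and 7.80% ± 1.49 (SD, n = 2 each), a difference of 3.72 percentage points. Both knockout samples lay above both controls. Over all 22421484 cytosines measured in every sample the order was the opposite, with 69.1% and 72.9% in controls and only 38.1% and 38.4% in knockouts. All 10 regions have a low control level, from 2.20% at Peg10 to 4.85% at Impact.

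**Figure D1:**
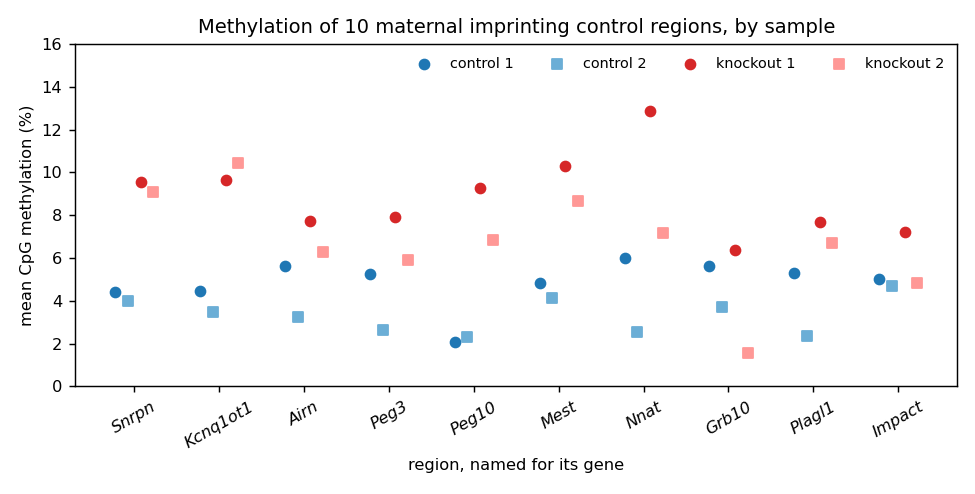
Mean CpG methylation in percent (vertical axis) of each of the 10 regions (horizontal axis), with 1 point per sample, blue for controls and red for knockouts. Both red points lie above both blue points at 8 of the regions, and the groups overlap at Grb10 and Impact.

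Promoter sequences show what these regions look like as DNA. They are printed for 4 genes, those among the genes searched whose promoter window overlaps its region and holds the letters TGCCGC. These letters are the core of the motif bound by ZFP57, a zinc finger protein that protects methylated imprints in the embryo. Each is the RefSeq window of 300 bases on assembly GRCm38.p6 (the same build as mm10), from 250 bases before to 50 after the gene start, 5′ to 3′ on the gene's strand. Capitals mark the motif, here read as GCGGCA, its reverse complement, and all other bases are in lower case.
Snrpn, chr7:60005150-60005449, minus strand: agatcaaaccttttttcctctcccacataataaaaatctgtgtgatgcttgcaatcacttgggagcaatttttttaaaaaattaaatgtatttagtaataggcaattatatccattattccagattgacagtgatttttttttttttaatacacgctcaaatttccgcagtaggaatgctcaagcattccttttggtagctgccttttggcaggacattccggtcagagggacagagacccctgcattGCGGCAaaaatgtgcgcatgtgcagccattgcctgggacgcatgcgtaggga
Mest, chr6:30737800-30738099, plus strand: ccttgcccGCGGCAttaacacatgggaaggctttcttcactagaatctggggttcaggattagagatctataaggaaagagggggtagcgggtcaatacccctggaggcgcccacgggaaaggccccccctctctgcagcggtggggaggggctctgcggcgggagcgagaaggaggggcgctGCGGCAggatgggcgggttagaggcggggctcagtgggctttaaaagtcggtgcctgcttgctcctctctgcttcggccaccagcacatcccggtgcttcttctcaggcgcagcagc
Nnat, chr2:157559828-157560127, plus strand: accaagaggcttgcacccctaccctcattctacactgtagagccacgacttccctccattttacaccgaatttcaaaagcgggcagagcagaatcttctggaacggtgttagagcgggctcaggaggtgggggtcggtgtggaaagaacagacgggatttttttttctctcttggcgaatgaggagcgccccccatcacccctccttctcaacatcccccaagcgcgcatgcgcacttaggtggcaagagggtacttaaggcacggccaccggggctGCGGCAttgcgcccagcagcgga
Plagl1, chr10:13090582-13090881, plus strand: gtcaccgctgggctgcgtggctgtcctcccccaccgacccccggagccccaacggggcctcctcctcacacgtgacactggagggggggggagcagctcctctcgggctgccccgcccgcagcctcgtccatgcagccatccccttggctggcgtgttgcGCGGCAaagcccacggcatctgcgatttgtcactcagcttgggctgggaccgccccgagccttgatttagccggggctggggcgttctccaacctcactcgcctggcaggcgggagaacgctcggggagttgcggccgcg

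Windows that overlap their region were searched for 7 of the 10 genes. Peg10 had no entry in the promoter list, and Impact, on chromosome 18, was left out of the search whatever its overlap. The motif, searched on both strands, was found in 4 of these 7 and in 11.6% of all 32817 promoter windows of the table. A match is only a description of the letters. The 7 windows differ in CpG content, with 3 CpGs at Airn, 7 at Snrpn, 9 at Kcnq1ot1, 13 at Peg3, 17 at Mest and Nnat and 26 at Plagl1, and the median of all windows is 7. Every CpG cytosine of the printed sequences was listed in the deposited table at its own position.

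The CpGs inside the motif were as weakly methylated in controls as the rest of the regions. At Mest the motif at chr6:30737808-30737813 was at 0% and 3.32% in the controls and at 12.9% and 13.5% in the knockouts. The second Mest motif, at chr6:30737983-30737988, was at 8.33% and 0% in the controls and at 2.63% and 14.1% in the knockouts. At the first the groups were apart and at the second they overlapped. The Plagl1 motif at chr10:13090742-13090747 was at 7.32% and 2.38% in the controls and at 7.35% and 5.77% in the knockouts, and the groups overlapped too. At Snrpn and Nnat only 1 cytosine of the motif was measured in all samples. It was at 0% in both controls and at 0% and 12.5% in the knockouts at Snrpn, while at Nnat it was at 0% and 5.26% in the controls and at 31.6% and 0% in the knockouts. Values of 1 or 2 cytosines scatter this widely, so the motif CpGs show no pattern of their own.

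The regions of the long non-coding RNAs lie at promoters inside other genes. The Kcnq1ot1 region (chr7:143294900-143296700) lies in an intronic part of Kcnq1 by general knowledge, and the gene table lists both genes there. Its 180 measured cytosines were at 4.48% and 3.47% in the controls and at 9.66% and 10.4% in the knockouts. The groups were far apart beside the spread within them, and the difference of 6.06 points was the largest of the 10. The region did not pass at an adjusted p under 0.05 (0.0571 by limma). The Airn region (chr17:12741300-12742700) overlaps Igf2r, the gene that Airn silences. It was at 5.64% and 3.27% in the controls and at 7.72% and 6.29% in the knockouts, a difference of 2.55 points with the groups apart. In the central part of the Airn region, 0.5 of its length, the difference was -0.274 points, and the higher level sat in its outer parts.

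The region of Snrpn (chr7:60003100-60005300), which overlaps Snrpn, Snurf and Snhg14, is the control region of the Prader-Willi and Angelman genes. It was at 4.40% and 3.97% in the controls and at 9.55% and 9.07% in the knockouts. The difference of 5.12 points was many times the spread within either group (SD 0.304 and 0.343, n = 2 each). An SD of 2 samples is itself uncertain, and the region did not pass (adjusted p = 0.0984 by limma). Only 79 of its 128 listed cytosines had a value in every sample, the fewest of the 10 regions.

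The region of Peg10 (chr6:4746000-4749400), which also holds the start of its neighbour Sgce, had the lowest control level and the largest ratio. It was at 2.07% and 2.33% in the controls and at 9.29% and 6.82% in the knockouts, a 3.66-fold level. The Peg10 region rose by 5.85 points, or 1.58 ± 0.300 (SE) on the log2 odds scale (adjusted p = 0.0105 by limma over 16152 regions). Its adjusted p by limma ran from 5.6e-08 to 0.297 over the alternatives, and it was 0.117 without control replicate 1, 0.0883 without control replicate 2 and 0.0745 without knockout replicate 1. In control replicate 1, 69.2% of its 266 cytosines were listed at exactly 0, and in control replicate 2 69.9%. In the knockouts 30.1% and 31.95% were. Such shares also depend on the read depth, which is unknown.

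The regions of the zinc finger genes differed less. The Peg3 region (chr7:6727500-6731300), shared with the start of Usp29, was at 5.23% and 2.65% in the controls and at 7.91% and 5.91% in the knockouts. The Plagl1 region (chr10:13090000-13092000), which also holds the non-coding gene Hymai, was at 5.30% and 2.35% in the controls and at 7.70% and 6.69% in the knockouts. At both the groups were apart, by 0.675 points at Peg3 and 1.39 at Plagl1, gaps smaller than the distance between the controls.

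The Mest region (chr6:30735000-30739000) was at 4.82% and 4.12% in the controls and at 10.3% and 8.68% in the knockouts. Its difference of 5.02 points grew to 9.93 in the central part of the region (adjusted p = 0.00842 by limma, against 0.134 for the whole region, and from 0.000857 to 0.528 over the alternatives). The Nnat region (chr2:157559000-157561600), which lies in an intron of Blcap by general knowledge, was at 6.003% and 2.57% in the controls and at 12.9% and 7.18% in the knockouts. Its knockouts differed from each other by as much as the groups did, with an SD of 4.02 points (n = 2) beside a difference of 5.74.

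At Grb10 and Impact the groups overlapped. The Grb10 region (chr11:12025400-12026300) was at 5.61% and 3.72% in the controls and at 6.36% and 1.58% in the knockouts. It is the shortest region, 901 bp, and the only one with a lower knockout mean, by -0.696 points, a sign that turned with some samples left out (0.252 points without control replicate 1 and 1.69 without knockout replicate 2). The Impact region (chr18:12972000-12974800) was at 5.02% and 4.68% in the controls and at 7.21% and 4.82% in the knockouts, and its difference of 1.16 points was -0.0284 without knockout replicate 1.

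A region was called changed at an adjusted p under 0.05 by limma and a difference of at least 10 points. None of the 10 was called, beside 5.83% of the 16152 regions called lower and 0.310% called higher. A lower call was not possible for the 10, whose control means of 2.20% to 4.85% leave no room for a fall of 10 points. The 16152 regions include islands with far higher control levels, 686 of them at 80% or more. With no minimum difference 1 of the 10, Peg10, passed as higher, and 0.978% of all regions did. None passed as lower, as 6.05% of all regions did. At an unadjusted p under 0.05 by limma, 6 of the 10 passed as higher and none as lower, and 6.63% of all regions passed as higher. None of the 10 had both knockouts below both controls, as 25.1% of all regions did, and 8 had both above both controls, as 19.7% of all regions did. The 10 share the same 4 samples and are not independent of each other. The test leans on a variance shared between regions, and with each region's own spread alone in limma no region of the fit passed, while 4 of the 10 and 3.67% of all regions were higher at an unadjusted p under 0.05.

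CpG islands with a low control level are the closer background. Among the 1278 islands at 2% to 6% in controls, a range set after the values of the 10 were seen, 43.0% had both knockouts above both controls and 6.89% passed as higher with no minimum difference. Their median difference was 0.651 points, against 4.197 for the 10 regions. Their median control level was 2.88%, below the 4.24% of the 10 regions. The median difference of islands was larger at higher control levels within the low range, -0.0208 points under 2% and 4.91 points at 6% to 20%. The medians of the islands and the 10 regions are thus not matched for control level. The 13244 islands under 2% in controls had means of 1.13% and 1.15% in the controls against 1.16% and 1.15% in the knockouts. Of these islands, 17.5% had both knockouts above both controls and 19.7% both below. The bisulfite conversion of the samples was not tested.

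**Figure D2:**
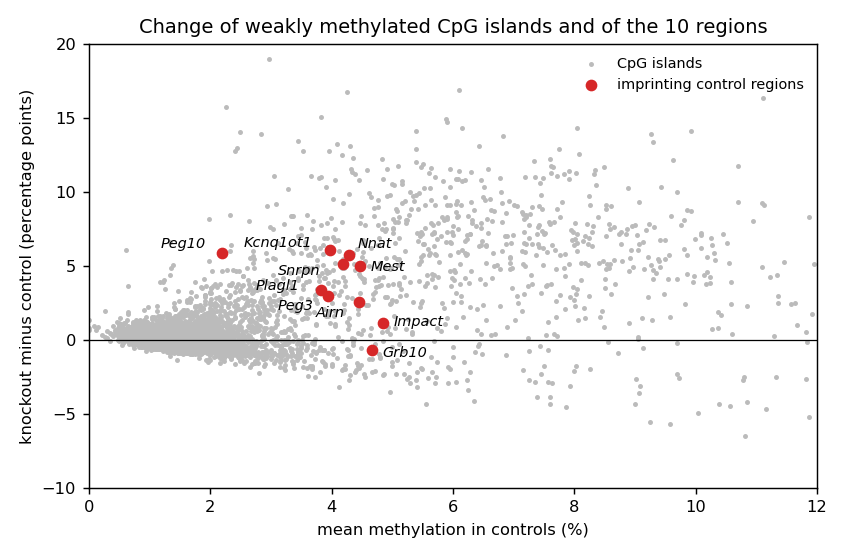
Knockout minus control difference in percentage points against the mean control level in percent, for CpG islands under 12% in controls (grey, 2 of 14929 fall outside the plotted range) and for the 10 regions (red). Most islands under 2% sit on the zero line, and 9 of the 10 regions lie above it.

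The difference was spread over many cytosines rather than a few. Of 1956 cytosines measured in the 10 regions, 1336 (68.3%) had a higher mean in knockouts, 557 a lower one and 63 the same. The share was 85.0% at Kcnq1ot1, 82.0% at Peg10 and 77.2% at Snrpn, and 56.2% at Impact and 31.95% at Grb10. Cytosines elsewhere were not counted this way, so these shares have no matched background. Among whole islands, 61.3% at 2% to 6% in controls and 81.9% at 6% to 20% had a higher knockout mean. Of the 1956 cytosines, those listed at exactly 0 made up 42.5% and 54.4% in the controls against 21.6% and 31.5% in the knockouts. A share at exactly 0 also depends on the read depth, which is unknown. Those at 20% or more made up 1.99% and 1.02% in the controls against 9.92% and 5.78% in the knockouts. Only 1 cytosine reached 50% in any sample, at 53.8% in the Peg10 region of knockout replicate 2. The regions held a low level across most of their CpGs in the knockouts. Each value is a percent over all reads of a sample, so fully methylated single copies could not be seen.

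Within the regions, 500-bp bins showed where the level was higher. Of 52 bins with at least 5 measured CpGs, 29 had both knockouts above both controls and 2 had both below. Like bins elsewhere were not counted. Among whole islands at 2% to 6% in controls, 43.0% had both knockouts above both controls and 25.5% both below. At 6% to 20% these shares were 57.9% and 10.5%. All 7 bins of Peg10 had both knockouts above both controls, and 0 of 2 at Grb10 and 1 of 5 at Impact did. In Mest, the bin from 2001 to 2500 bp after the lower-coordinate border was at 1.82% and 2.21% in the controls and at 13.9% and 15.5% in the knockouts. The next bin, from 2501 to 3000 bp, was at 4.38% and 1.92% in the controls and at 13.7% and 16.8% in the knockouts. The 3001 to 3500 bp bin of Mest, which holds the gene start, was at 6.38% and 4.80% against 7.95% and 4.43%. Both knockouts lay above both controls in 3 of the 8 Mest bins, those that start at 2001 and 2501 bp and the one from 1 to 500 bp. The groups overlapped in the other 5, which include the 3 bins from 501 to 2000 bp, also upstream of the gene start. In Nnat and Peg3 the highest knockout bins were the ones at the lower-coordinate border, at 17.96% and 13.5% (mean of the 2 knockouts).

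**Figure D3:**
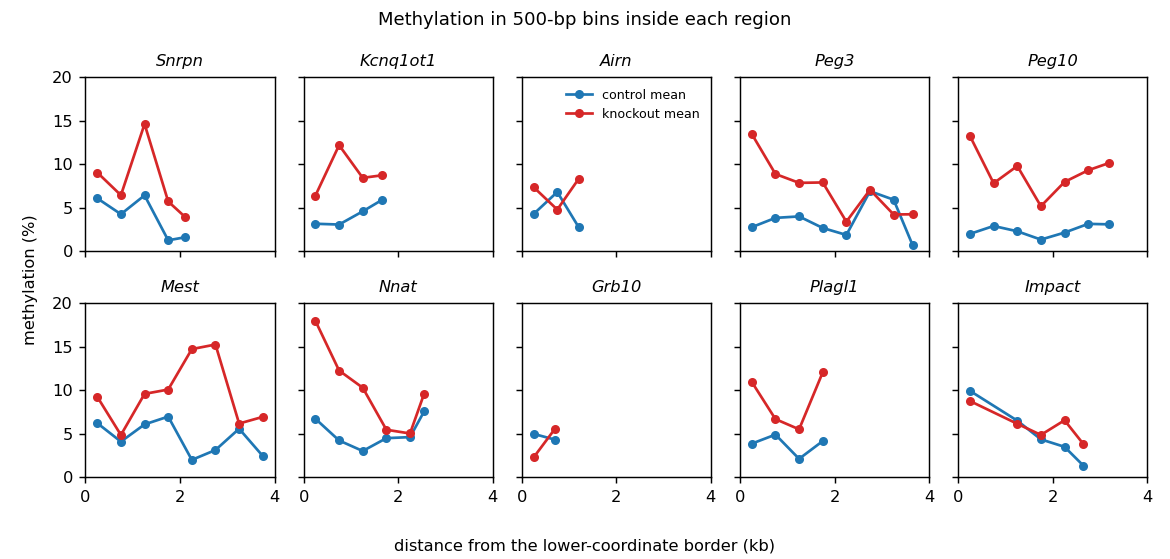
Methylation in percent (vertical axis) in 500-bp bins along each region (horizontal axis, kb from its lower-coordinate border), with the mean of the 2 controls in blue and of the 2 knockouts in red. The red line lies above the blue one in 47 of the 52 bins.

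The DNA around the regions behaved like the rest of the genome. From 2 to 10 kb outside the borders, the mean over the 10 flanks was 72.2% and 77.1% in the controls against 42.3% and 41.1% in the knockouts, so the knockouts had 55.9% of the control level. All 10 flanks had both knockouts below both controls, with differences from -42.8 points at Peg3 to -22.1 points at Nnat. The flank of Kcnq1ot1 was at 84.7% and 89.0% in the controls and at 55.2% and 52.0% in the knockouts. The flank of Impact was at 88.4% and 92.1% in the controls and at 48.1% and 47.0% in the knockouts. The lowest control flanks, at Nnat (51.6%) and Peg10 (56.1%), hold CpG-rich DNA on one side, where the control mean was 22.8% and 39.8%.

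In the first 500 bp outside the borders the regions differed in the order of the groups. The mean over the 10 was 21.6% and 23.3% in the controls against 21.0% and 15.96% in the knockouts. The knockout mean was above the control mean at 6 regions (Snrpn, Kcnq1ot1, Peg3, Peg10, Grb10 and Plagl1) and below it at 4, with both knockouts above both controls at 3 and below them at 3. The mean leans on Impact, whose 8 cytosines there were at 79.2% and 78.6% in the controls and at 50.7% and 34.96% in the knockouts. With Impact left out, a choice made after the values were seen, the mean was 15.2% and 17.1% against 17.7% and 13.9%, and the groups overlapped. From 500 to 1000 bp outside it was 52.5% and 60.7% in the controls against 35.5% and 30.3% in the knockouts, and from 1000 to 1500 bp it was 74.5% and 81.1% against 40.6% and 43.2%. In each of these last 2 bins 7 regions had the minimum of 4 measured cytosines, and the knockout mean was the lower one at 6 of them. The exceptions were Grb10 from 500 to 1000 bp, at 8.98% and 8.35% in the controls and at 12.98% and 8.98% in the knockouts, and Mest from 1000 to 1500 bp, at 12.95% and 8.77% in the controls and at 11.2% and 14.7% in the knockouts.

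**Figure D4:**
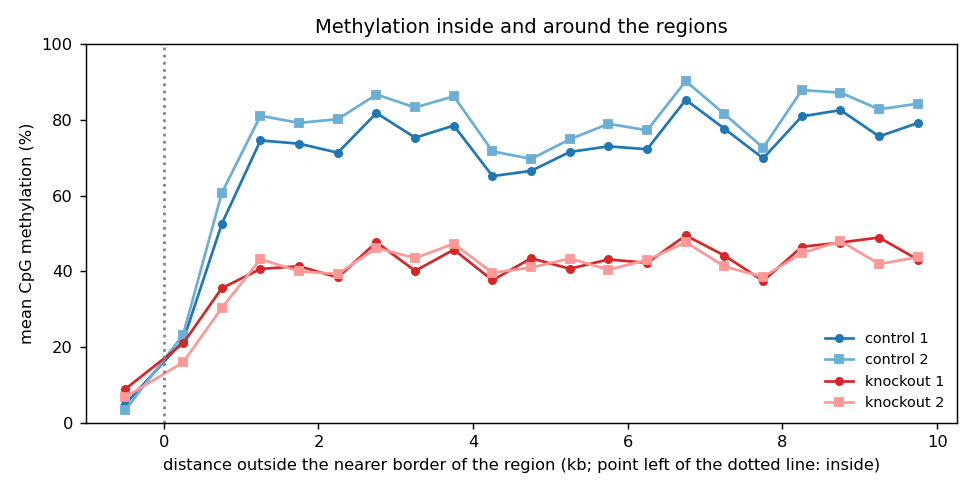
Mean CpG methylation in percent (vertical axis) inside the regions (the points left of the dotted line) and in 500-bp bins outside the nearer border (horizontal axis, kb), 1 line per sample, averaged over the 6 to 10 regions with at least 4 measured cytosines in a bin. The knockouts are the higher samples inside, the first outer bin mixes 6 regions with a higher and 4 with a lower knockout mean, and beyond 1 kb the controls lie above 60% and the knockouts below 50%.

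Regions methylated on the paternal copy gave the opposite picture. Windows were placed upstream of 3 genes, at 2000 to 4000 bp for H19, 11000 to 15000 bp for Meg3 and 28000 to 32000 bp for Rasgrf1. The H19 window was at 85.6% and 91.5% in the controls and at 40.4% and 48.5% in the knockouts, the Meg3 window at 91.6% and 93.0% against 48.0% and 51.4%, and the Rasgrf1 window at 74.6% and 78.8% against 31.6% and 36.3%. H19, Meg3 and Rasgrf1 all fell, with adjusted p from 0.000102 to 0.000423 by limma. Their control means of 88.6%, 92.3% and 76.7% stand beside 2.20% to 4.85% in the 10 maternal regions. As background, male germ cells carry paternal imprints and have erased maternal ones. The difference in response between the 2 kinds of region was not tested, since they start from opposite ends of the scale.

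Other maternally methylated genes varied. Nap1l5, a retrogene inside Herc3, was at 5.72% and 2.90% in the controls and at 13.1% and 5.57% in the knockouts. Zrsr1, the retrogene of a splicing factor, was at 8.84% and 8.94% in the controls and at 10.2% and 10.02% in the knockouts. Mcts2, a retrogene inside H13, was at 8.63% and 13.1% against 12.9% and 11.4%. Peg13, a non-coding RNA inside Trappc9, was at 33.1% and 34.8% in the controls and at 23.2% and 21.6% in the knockouts. These windows cover the whole gene with 500 bp on each side and so include methylated gene DNA. None of the 4 passed at an adjusted p under 0.05 by limma (0.168 to 0.882), and 1, Zrsr1, had both knockouts above both controls, while Peg13 had both below.

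Promoters of a set of germline genes moved with the 10 regions. As background, promoters of this kind are known to be methylated in somatic tissues and unmethylated in germ cells. Over 14 such promoters, in windows of 500 bp on each side of the gene start, the mean was 6.59% and 5.53% in the controls against 16.9% and 12.3% in the knockouts. All 14 had a higher knockout mean, 12 had both knockouts above both controls, and none was at 0 in any sample. CpG islands at a somewhat higher control level (median 8.46%, against 6.26% for the promoters) also tended to be higher. Of the 515 islands at 6% to 20% in controls, a range set after the values were seen, 81.9% had a higher knockout mean and 57.9% had both knockouts above both controls, with a median difference of 4.91 points. Sycp1, a synaptonemal complex gene, rose from 4.21% and 4.08% in the controls to 17.1% and 11.9% in the knockouts (adjusted p = 0.0171 by limma), and Mael, a piRNA pathway gene, from 1.31% and 6.26% to 14.97% and 18.3% (adjusted p = 0.0323 by limma). With 1 sample left out, an alternative added after seeing the data, Sycp1 passed only without knockout replicate 2 (adjusted p from 0.0435 to 0.131 by limma) and Mael only without control replicate 2 (0.00413 to 0.230 by limma). Dazl, which encodes an RNA-binding protein of germ cells, was at 7.87% and 4.26% against 21.3% and 14.3%, and Sycp3, another synaptonemal complex gene, at 4.46% and 8.37% against 17.4% and 16.9%, with adjusted p of 0.0550 and 0.0560 by limma.

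In both sets control replicate 1 was above control replicate 2 and knockout replicate 1 above knockout replicate 2. CpG islands at 2% to 6% in controls had this order too (controls 3.35% then 3.21%, knockouts 5.91% then 4.61%). So did islands at 6% to 20% (controls 10.04% then 9.20%, knockouts 15.70% then 12.05%). In islands under 2% or at 20% or more, control replicate 1 was the lower control. The direction of the order is thus shared with other weakly methylated islands, while its size differed. The control gap was smaller in both island sets than in the 10 regions (4.86% then 3.31%) and the promoters (6.59% then 5.53%). The knockout gap of the 10 regions (8.86% then 6.75%) lay between those of the island sets, and that of the promoters (16.9% then 12.3%) was larger. The cause of the order was not tested. The labels describe removal of interstitial cells with a mesh, and Sertoli cells lie inside the tubules. The part of somatic DNA in the levels of the 10 regions was not tested. More methylated copies among the germ cells and more DNA of other cells cannot be told apart in bulk samples.

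**Figure D5:**
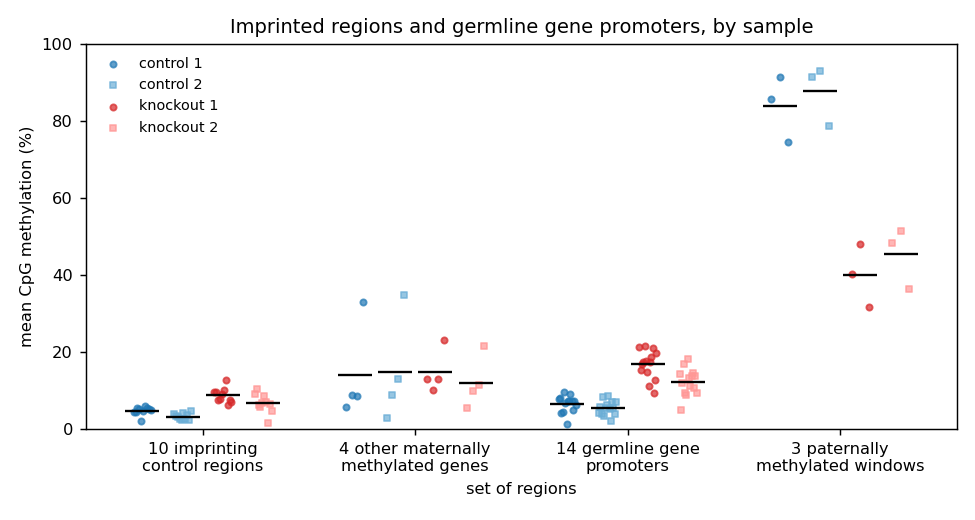
Methylation in percent (vertical axis) of single regions (points) and their mean (bars), by sample, for the 10 regions, 4 other maternally methylated genes, 14 germline gene promoters and 3 paternally methylated windows (horizontal axis). The 10 regions and the germline promoters are higher in both knockouts, and the paternally methylated windows are lower.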

How the data were processed

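The deposited table gives the percent of methylated reads at each CpG cytosine of each strand in each of the 4 samples, as the authors made it. Per the labels' protocols the DNA was converted with a bisulfite kit and sequenced after adaptors were added to the converted strands (PBAT), and per the submitters' processing notes the build was mm10. The aligner is not given in the sources used here, nor is the methylation caller. A minimum of 10 reads is named in the table's title, and no read depth is given. The table lists 37230584 cytosines, of which 22421484 (60.2%) had a value in all samples and were used.

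A region's level was the mean over its cytosines, and a difference is the knockout mean minus the control mean. CpG islands were stretches in which 500 bp held 30 or more listed CpGs. Those used overlapped none of the 10 regions and had at least 10 CpGs measured. Levels m (as fractions) were tested with limma 3.58.1 (R 4.3.3, trended and robust prior variance) on log2((m + 0.01)/(1 − m + 0.01)), with Benjamini-Hochberg adjustment over all 16152 regions. The comparison windows were fitted the same way in a second fit of 16157 regions, without the islands they overlap. The test was checked on simulated data, with 50 gains of each size planted in regions at 2% to 6% in controls. With no minimum difference it recovered 6% of gains of 2 points, 38% of 5, 88% of 10 and 98% of 20, with 4 false calls. Most gains of the size seen at the 10 regions would thus be missed. The promoter sequences are from RefSeq, and gene positions are from a RefSeq table for GRCm38.p6, with the strand of H19, Meg3 and Rasgrf1 from general knowledge. The text names the 10 regions, the comparison windows and, of the germline promoters, Dazl, Sycp1, Sycp3 and Mael. The other promoters were Ddx4, Syce1, Hormad1, Tex101, Slc25a31, Asz1, Mov10l1, Tdrd1, Brdt and Stk31, between 10.1% and 17.9% in knockouts and 5.21% and 8.03% in controls. The regions and lists were chosen with earlier results of these data known. Alternatives changed the cytosines used, region borders, offset, scale, variance, comparison regions and samples. Python 3.11.15, NumPy 2.4.6, pandas 2.3.3 and Matplotlib 3.10.9 were also used.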

Additional observations from a re-analysis of the deposited data

How the results depend on the processing

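The mean difference over the 10 regions kept its sign under every alternative run. With 1 sample left out it ran from 2.66 points, when knockout replicate 1 was missing, to 4.77, when knockout replicate 2 was. It was 4.44 with medians over cytosines, 3.21 with 500 bp added on each side and 4.01 in the central part of each region. Between 8 and 10 regions had a positive difference, and between 7 and 9 had both knockouts above both controls. No region was called with the minimum of 10 points under any alternative, and 1, Peg10, was with no minimum difference. The number with an adjusted p under 0.05 by limma, 1 in the text, was 3 in the central part of each region, 0 with each region's own spread, 8 with 1-kb windows of the genome in place of islands, where the variance was pooled over windows, and 0 to 1 with 1 sample left out. In the fit with 1-kb windows most regions passed, 430205 of 493595 as lower and 10642 as higher, so the 8 there do not set these regions apart. With the replicate number as a block the number of the 10 with an adjusted p under 0.05 by limma was 3. Same-numbered samples deviated together only weakly (r = 0.0689 across 16152 regions, which are not independent replicates), so the numbers were not taken as pairs. The sign of the difference in points turned at Airn in its central part (-0.274 points) and at Impact without knockout replicate 1 (-0.0284). At Grb10 it turned with 500 bp added (0.392 points), without control replicate 1 (0.252) or without knockout replicate 2 (1.69). On the tested log2 odds scale the sign stayed at Airn (0.101), and at Grb10 with 500 bp added (-0.0175) and without control replicate 1 (-0.110). It turned there at Impact with 500 bp added (-0.0204). The cause was not tested. With 1 sample left out, the difference ran from -3.08 to 1.69 points at Grb10 and from -0.0284 to 2.36 at Impact. Medians over cytosines could not be tested, since most islands have a median of 0. A coverage minimum could not be varied because the table gives no depth.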
